A study of Mus musculus with 9 samples.

Results

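The genes described here code for the FGF, PDGF, VEGF and EGF families of growth factors, for their receptors, and for HGF with its receptor Met, KIT ligand with its receptor, and CSF1. They were taken by a rule on gene symbols alone, which 58 of the 23337 genes in the table met. The choice of these families was made with earlier results of these data known. RNA was sequenced from immortalised mouse embryonic fibroblasts (MEFs) of a mixed C57BL/6 x 129 background that lack functional Cebpb. They had been stably transfected, under Zeocin selection, with an empty vector (EV), with the long C/EBPβ isoform LAP or with the short isoform LIP, the last 2 of rat sequence, with 3 libraries for each group (9 in total). The knockout is shared by all groups, EV included, so no group carries an intact Cebpb gene. The comparisons address how the transcripts of these cells differ with either isoform expressed alone. The cells of each group were transfected with their own construct, so isoform and transfected line cannot be told apart.

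These families signal through receptor tyrosine kinases. A ligand brings receptor chains together on the cell surface, the chains phosphorylate each other, and adaptors pass the signal on to Ras, the MAP kinases and PI3 kinase. Fibroblasts are known as targets of PDGF and of several FGFs and as a source of FGF7, FGF10 and HGF for neighbouring epithelium. LAP and LIP are made from the same mRNA, and LIP lacks the N-terminal part through which LAP activates transcription.

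The unit is the raw read count per gene, of which 24839139 to 33522082 were assigned in a library. Levels are given as CPM, that is read counts brought to a common library size, with edgeR's TMM factors over the 9 libraries. A count of 3, used as the floor, stood for 0.0895 to 0.121 CPM, which covers counting error only. On the leading principal component, with 40.7% of the variance, LIP libraries 2 and 3 lay at 38.2 and 52.9, whereas LIP library 1 (2.57) lay beside LAP library 3 (0.634), and a number of values are therefore also given without a library. Cebpb itself was counted 684 to 1077 times in each of the 9 libraries with overlapping groups, and the labels do not say which part was deleted, so this gene does not check them. Of the fibroblast markers, Vim had 102497 counts or more in every library and Col1a1 95889 or more. Lum was low throughout, with 45, 14 and 3 counts in EV, 22, 1 and 3 in LAP and 0 in all 3 LIP libraries. Of the epithelial markers, Krt8 had 10764 to 24521 counts and Krt19 12977 to 34128. The others were low, with 22 to 73 counts of Krt18, 24 to 111 of Cdh1, 1 to 18 of Epcam and 0 to 2 of Cldn4. The macrophage markers Ptprc, Itgam and Tyrobp were at 0 in all 9 beside 68 to 250 counts of Cd68 and 21 to 76 of Csf1r. The endothelial markers Pecam1 and Emcn were at 0 beside 5 to 15 counts of Cdh5 and 2 to 14 of Esam. In bulk RNA, fewer cells of a type and less RNA per cell cannot be told apart.

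Promoters are shown for the members that passed the test, Fgf5 and Tgfa, and for Pdgfra, the receptor gene of the list in whose promoter a C/EBP-like motif was found. They come from RefSeq (GRCm38.p6), read 5′ to 3′ on the + strand, and run from 250 bases before the start site to 30 after it, at chr5:98253934-98254213, chr6:86194972-86195251 and chr5:75152001-75152280. Capitals mark TTGCNNAA on either strand, a form of the palindrome that C/EBP proteins are known to bind.
Fgf5: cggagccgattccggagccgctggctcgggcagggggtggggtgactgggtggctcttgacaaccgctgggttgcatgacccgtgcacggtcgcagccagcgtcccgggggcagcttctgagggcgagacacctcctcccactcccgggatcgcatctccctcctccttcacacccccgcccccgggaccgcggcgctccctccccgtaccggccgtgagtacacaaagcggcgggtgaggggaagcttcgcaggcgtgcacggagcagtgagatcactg
Tgfa: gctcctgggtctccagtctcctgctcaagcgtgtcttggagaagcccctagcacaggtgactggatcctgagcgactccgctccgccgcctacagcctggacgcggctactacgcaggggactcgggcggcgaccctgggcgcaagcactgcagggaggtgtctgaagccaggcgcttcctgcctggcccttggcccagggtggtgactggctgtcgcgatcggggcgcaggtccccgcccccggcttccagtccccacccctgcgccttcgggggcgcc
Pdgfra: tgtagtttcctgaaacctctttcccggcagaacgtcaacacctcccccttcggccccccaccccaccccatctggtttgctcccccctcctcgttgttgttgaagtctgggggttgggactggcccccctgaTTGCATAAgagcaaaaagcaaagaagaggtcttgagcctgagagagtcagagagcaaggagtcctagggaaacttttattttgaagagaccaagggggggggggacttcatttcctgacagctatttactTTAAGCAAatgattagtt

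The Pdgfra window held the motif starting 118 bases before and again 12 bases after the start site, and the Fgf5 and Tgfa windows held none. Searched over 300 bases that reach 50 past the start, the motif was found in 6 of the 55 promoters that RefSeq lists for 44 of the 58 members (10.9%), near its share of 10.8% among all 32851 promoters. The members that held it were Fgf13, Fgf23, Fgf3, Nrg4, Pdgfra and Vegfc. The full palindrome TTGCGCAA, which TTGCNNAA includes, was in 0 of the 55 and in 0.183% of all promoters. A match describes these letters and is no evidence of binding.

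Most of these families were represented in the cells by a few members each. Of the 58, 35 had a mean of at least 20 counts over the 9 libraries and 12 never exceeded 10 counts, among them Fgf3, Fgf8, Fgf15, Fgf23, Fgfr4, Nrg3 and Kit. A further 6 (Fgf4, Fgf6, Fgf12, Fgf14, Fgf20 and Vegfa) were at 0 in all libraries, and the remaining 5 (Erbb4, Fgf9, Fgf21, Fgfr3 and Hgf) lay between. Per kb of exons, the highest levels in EV were those of Fgf7 with 81.7 ± 5.51 CPM per kb (SD, n = 3), a ligand that acts on epithelial cells through a splice form of FGFR2, and of Met, the HGF receptor, with 54.98 ± 3.71 CPM per kb. They were followed by Kitl at 34.4 ± 4.86, Flt4 at 31.2 ± 4.33, Hbegf at 29.4 ± 9.32 and Figf at 26.2 ± 1.20 CPM per kb, and among these 4 each differed from the next by less than the SD. Pdgfrb, a classical fibroblast receptor, was at 0.195 CPM per kb in EV. Fgfr1 and Pdgfra were listed at 0.371 and 0.345 CPM per kb, which for the following reason cannot be set against the others.

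**Figure D1:**
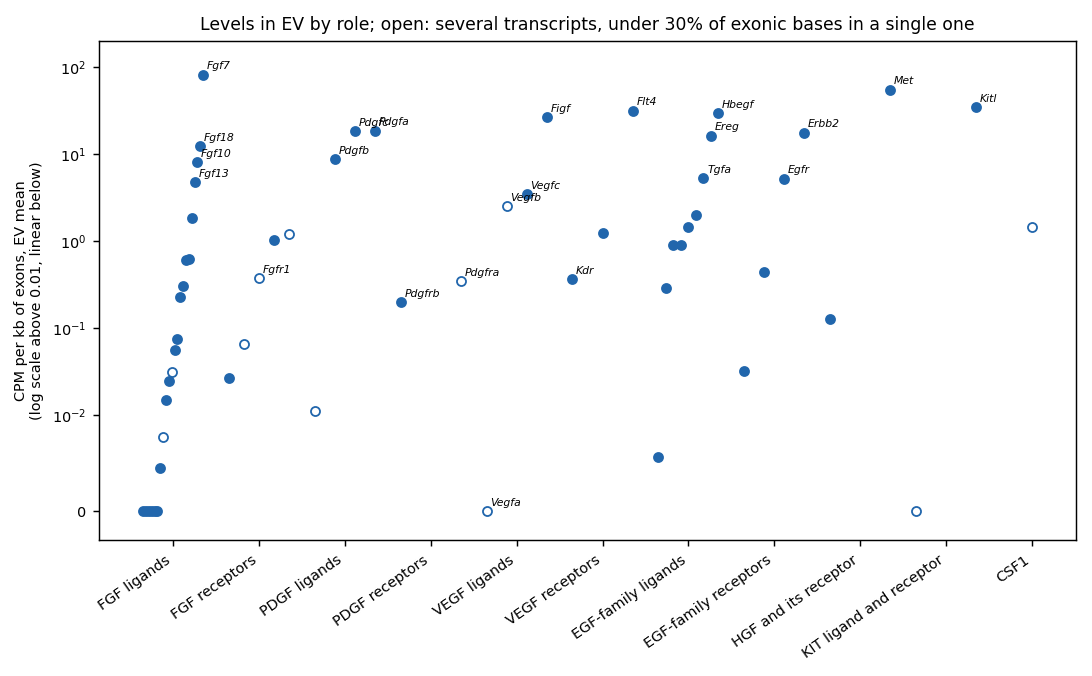
Mean level in EV (CPM per kb of exons, log scale above 0.01 and linear below it) of the 58 members by role, 1 point per gene. Fgf7 and Met are highest, at 81.7 and 54.98 CPM per kb, and open points, genes whose exonic bases lie under 30% in a single transcript, include Vegfa and Kit at 0.

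Levels of some members cannot be compared with those of others. Across all genes, those with several transcripts and under 30% of their exonic bases in a single one had a median of 8.85 reads per kb (n = 3357), against 19.3 for genes with 1 transcript (n = 14605), with upper quartiles of 108 and 427. This holds for 11 members (Csf1, Fgf11, Fgf8, Fgfr1, Fgfr3, Fgfrl1, Kit, Pdgfd, Pdgfra, Vegfa and Vegfb), whose highest mean count was 177, whereas the 37 members with 1 transcript reached 10773. Whether the counting lost reads shared by transcripts was not tested, nor whether the fold changes of these 11 members, Fgfr1 and Pdgfra included, stand for the whole gene. Vegfa, the main angiogenic VEGF, is thus listed at 0 only.

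**Figure D2:**
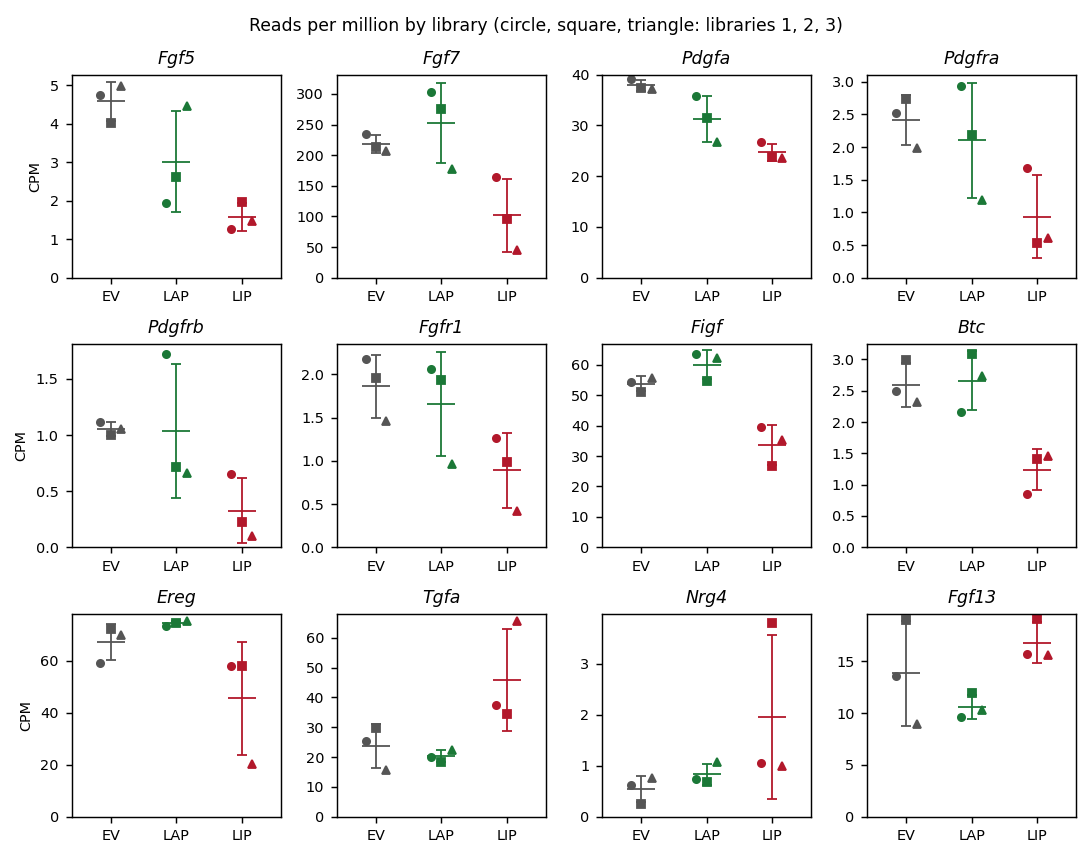
CPM of 12 members in the 9 libraries (circles, squares and triangles are libraries 1, 2 and 3, and bars give the mean and SD of a group). For Fgf5, Pdgfa, Figf and Btc all LIP points lie below all EV points, and for Tgfa all LIP points lie above those of EV and LAP.

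LIP was first compared with EV. Among the members, Fgf5 fell, and the ligands Fgf7, Pdgfa, Pdgfc, Figf and Btc and the receptors Pdgfra, Pdgfrb and Fgfr1 had lower means in LIP without passing the adjusted threshold. By the quasi-likelihood test of edgeR, with p-values adjusted over all genes (Benjamini-Hochberg), 1 of the 51 members tested was lower (adjusted p under 0.05), where 0.330% of all 18203 genes were, and 0 were higher, where 0.0659% were, as also by DESeq2 and edgeR's exact test. For the lower side DESeq2 gave 3 and the exact test 4 members, and the share of all genes they called is not given here. At an unadjusted p under 0.05 each gave 14 lower members, beside 5.80% of all genes by DESeq2 and 6.26% by the exact test. The 7 members not tested had no read in these 6 libraries. A two-sided exact permutation test of a single member cannot give a p below 0.1 with 3 libraries against 3, and it gave 0.1 for each member without overlap. The labels do not say whether the libraries of a group came from separate cultures, so the p-values measure the spread between these libraries, which may be technical. At an unadjusted p under 0.05, 15 members were lower (29.4%, against 6.75% of all genes) and 2 were higher (3.92%, against 4.23%). Groups did not overlap, with LIP lower, for 13 members (25.5%, against 8.83%), and with LIP higher for 2 (3.92%, against 6.80%). Of the 35 members with a mean of at least 20 counts here, 27 had a log2 fold change below 0 and the median was -0.39, beside 0.02 over the 11534 genes at that level, of which 47.6% were below 0. The median stayed between -0.52 and -0.22 with any library left out, and -0.22 was reached without LIP library 3.

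Fgf5, an FGF ligand known for its control of the hair cycle, was at 4.76, 4.02 and 4.98 CPM in EV libraries 1 to 3, at 1.94, 2.62 and 4.48 CPM in LAP, and at 1.27, 1.97 and 1.49 CPM in LIP. All LIP values lay below all EV values, and LAP lay between with 1 library within the range of EV and 1 within that of LIP. The log2 fold change of LIP against EV was -1.54 ± 0.28 (SE, n = 3 each, adjusted p = 0.0397 by edgeR), which is 2.91-fold lower. This call was lost with scaling by total counts only (adjusted p = 0.0793), with edgeR's filterByExpr (0.130), with the current form of the quasi-likelihood test (0.0641), without LIP library 1 (0.05003, just above the threshold) and without any of EV libraries 1, 2 and 3 (0.0919, 0.131 and 0.0789). The fold change stayed between -1.74 and -1.40 with any library left out.

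Fgf7, the ligand with the highest level per kb in EV and LAP, had 235, 214 and 206 CPM in EV, 303, 276 and 178 CPM in LAP and 165, 95.6 and 44.8 CPM in LIP. LIP did not overlap with EV or LAP although the LIP libraries themselves were far apart, with library 1 the highest. Its log2 fold change in LIP against EV was -1.10 ± 0.33 (SE, adjusted p = 0.210 by edgeR). Fgf10, its closest relative in receptor use and named here after its values were seen, ran from 23.3 to 39.2 CPM in EV and from 3.75 to 24.98 CPM in LIP, with overlap. Fgf9 and Fgf21 were counted 17 to 38 and 14 to 24 times in EV libraries and 5 to 12 and 1 to 8 times in LIP, too few for a firm fold. The ligands Fgf1, Fgf2 and Fgf18 had log2 fold changes of -0.16 ± 0.44, -0.08 ± 0.33 and 0.35 ± 0.27 (SE), with overlap between the groups.

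Of the FGF receptors, Fgfr1 was at 2.18, 1.96 and 1.46 CPM in EV, 2.07, 1.94 and 0.962 CPM in LAP and 1.27, 0.983 and 0.420 CPM in LIP. LIP did not overlap with EV, and the log2 fold change was -1.08 ± 0.40 (SE, adjusted p = 0.327 by edgeR). Fgfrl1, a receptor without the kinase domain, had the highest listed EV level of this role per kb (1.18 ± 0.176 CPM per kb, SD). Fgfr2 was at 1.02 ± 0.215, a difference under the SD. As for Fgfr1, the listed level of Fgfrl1 cannot be set against the others. It was at 3.48, 3.14 and 2.58 CPM in EV, 3.05, 2.19 and 1.78 CPM in LAP and 2.57, 1.93 and 1.91 CPM in LIP. The lowest EV library and the highest LIP library all but met, and its unadjusted p was 0.0807 by edgeR. Fgfr2 had a log2 fold change of -0.37 ± 0.27 (SE), with overlap.

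In the PDGF family, ligands and receptors had lower means in LIP with the exception of Pdgfb, and Pdgfd was barely detected. Pdgfa, which acts on PDGFRα, was at 39.2, 37.4 and 37.1 CPM in EV, 35.8, 31.5 and 26.7 CPM in LAP and 26.7, 23.8 and 23.6 CPM in LIP. The replicates of EV and of LIP lay close together and did not overlap, with a log2 fold change of -0.62 ± 0.15 (SE, adjusted p = 0.118 by edgeR). DESeq2 and edgeR's exact test both called this gene lower. Pdgfc, another ligand of PDGFRα, was at 68.8, 69.8 and 53.0 CPM in EV, 82.1, 77.2 and 54.9 CPM in LAP and 56.2, 27.1 and 25.6 CPM in LIP. LIP library 1 lay within the range of EV, and the log2 fold change was -0.82 ± 0.27 (SE, adjusted p = 0.255 by edgeR). Pdgfb, the ligand of both receptors, had 25.7 ± 7.58 CPM (SD, n = 3) in EV against 36.1 ± 8.60 CPM in LIP, with overlap.

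Pdgfra, the PDGFRα chain, was at 2.52, 2.73 and 1.99 CPM in EV, 2.93, 2.19 and 1.18 CPM in LAP and 1.67, 0.524 and 0.614 CPM in LIP. Pdgfrb was at 1.12, 0.996 and 1.05 CPM in EV, 1.73, 0.719 and 0.666 CPM in LAP and 0.653, 0.229 and 0.0969 CPM in LIP. For both receptors LIP did not overlap with EV and LIP library 1 was the highest of the LIP libraries. The log2 fold changes were -1.38 ± 0.42 for Pdgfra and -1.74 ± 0.53 for Pdgfrb (SE, adjusted p = 0.209 and 0.215 by edgeR), and the counts of Pdgfrb in LIP were only 16, 7 and 3. Without LIP library 1, both passed the threshold, as did Fgf7, Fgf10 and Pdgfc, while Fgf5 did not.

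In the VEGF family, Figf (VEGF-D, which signals through FLT4) was at 54.5, 51.0 and 55.8 CPM in EV, 63.6, 54.6 and 62.1 CPM in LAP and 39.4, 26.6 and 35.3 CPM in LIP. LIP lay below every EV and LAP library, and the log2 fold change against EV was -0.67 ± 0.17 (SE, adjusted p = 0.133 by edgeR). DESeq2 called it lower. Its receptor Flt4, of the lymphatic endothelium, was at 226, 176 and 184 CPM in EV, 212, 120 and 224 CPM in LAP and 180, 109 and 185 CPM in LIP. The groups overlapped, with library 2 lowest in each, and the log2 fold change was -0.30 ± 0.21 (SE). Vegfc had 8.47 ± 2.77 CPM (SD, n = 3) in EV against 11.8 ± 3.30 CPM in LIP, with overlap, and Kdr and Flt1 had log2 fold changes of -0.46 ± 0.37 and -0.46 ± 0.34 (SE). That of Vegfb was -0.04 ± 0.25 (SE).

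The EGF-family ligands, which bind EGFR or its relatives, held members on either side. Btc, which binds EGFR and ERBB4, was at 2.49, 2.99 and 2.31 CPM in EV, 2.16, 3.09 and 2.74 CPM in LAP and 0.857, 1.41 and 1.45 CPM in LIP. LIP lay below both other groups without overlap, with a log2 fold change against EV of -1.05 ± 0.31 (SE, adjusted p = 0.194 by edgeR). Tgfa, a ligand of EGFR, was at 25.4, 29.9 and 15.6 CPM in EV, 20.1, 18.3 and 22.4 CPM in LAP and 37.6, 34.3 and 65.6 CPM in LIP. LIP lay above both other groups, with a log2 fold change against EV of 0.95 ± 0.28 (SE, adjusted p = 0.188 by edgeR), which was 0.61 without LIP library 3. Nrg4, a neuregulin that binds ERBB4, was at 0.622, 0.258 and 0.762 CPM in EV, 0.740, 0.683 and 1.07 CPM in LAP and 1.06, 3.80 and 1.001 CPM in LIP. Its log2 fold change of 1.82 ± 0.55 (SE, adjusted p = 0.212 by edgeR) rested largely on LIP library 2, without which it was 0.88, and against LAP the value of 1.25 ± 0.48 (SE) was 0.32 without that library.

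Ereg, Areg and Btc are neighbours on chromosome 5 (GRCm38.p6, at chr5:91074617-91093649, chr5:91139599-91148432 and chr5:91357261-91402994) but did not share a pattern. Ereg was at 59.2, 72.1 and 69.9 CPM in EV, 73.3, 74.4 and 75.3 CPM in LAP and 58.1, 58.1 and 20.4 CPM in LIP. Areg was at 0.809, 1.51 and 0.937 CPM in EV, 0.555, 0.683 and 0.592 CPM in LAP and 0.653, 1.28 and 0.517 CPM in LIP. The mean of LIP was the lowest for Ereg and Btc, whereas the lowest mean of Areg was that of LAP. For Ereg the size of the difference, though not its direction, rested largely on LIP library 3. Without that library the log2 fold change of LIP went from -0.56 to -0.20 against EV and from -0.69 to -0.34 against LAP. Hbegf, the EGF-family ligand with the highest level, was at 80.0, 85.1 and 44.5 CPM in EV, 90.6, 66.7 and 72.9 CPM in LAP and 132, 117 and 49.97 CPM in LIP, where library 3 lay within the range of EV. For the receptors of these ligands, LIP and EV overlapped. Erbb2 was at 86.3, 91.3 and 84.9 CPM in EV, 85.3, 63.9 and 81.7 CPM in LAP and 86.0, 70.1 and 104 CPM in LIP, and the log2 fold change of LIP against EV was -0.01 ± 0.17 for Erbb2 and -0.04 ± 0.16 for Egfr (SE). Erbb3 lay at -0.18 ± 0.45 and the neuregulin Nrg1 at -0.52 ± 0.23 (SE, adjusted p = 0.432 by edgeR).

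Of the other pairs of ligand and receptor, Met was at 358, 403 and 362 CPM in EV, 345, 287 and 414 CPM in LAP and 414, 223 and 480 CPM in LIP. The LIP libraries lay on both sides of EV, and the log2 fold change was -0.01 ± 0.24 (SE). Its ligand Hgf was counted 11 to 15 times in EV, 5 to 17 times in LAP and 2, 7 and 0 times in LIP, too few for a firm fold. Kitl, the KIT ligand, was at 162, 212 and 208 CPM in EV, 140, 175 and 235 CPM in LAP and 129, 103 and 167 CPM in LIP, with overlap and a log2 fold change of -0.55 ± 0.20 (SE, adjusted p = 0.314 by edgeR). Its receptor Kit, a member whose level cannot be compared with those of others, had 1 read in the 9 libraries. Csf1, the macrophage growth factor, was at 5.94, 5.94 and 7.001 CPM in EV, 8.57, 6.00 and 5.77 CPM in LAP and 6.90, 4.29 and 3.23 CPM in LIP, again with overlap.

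**Figure D3:**
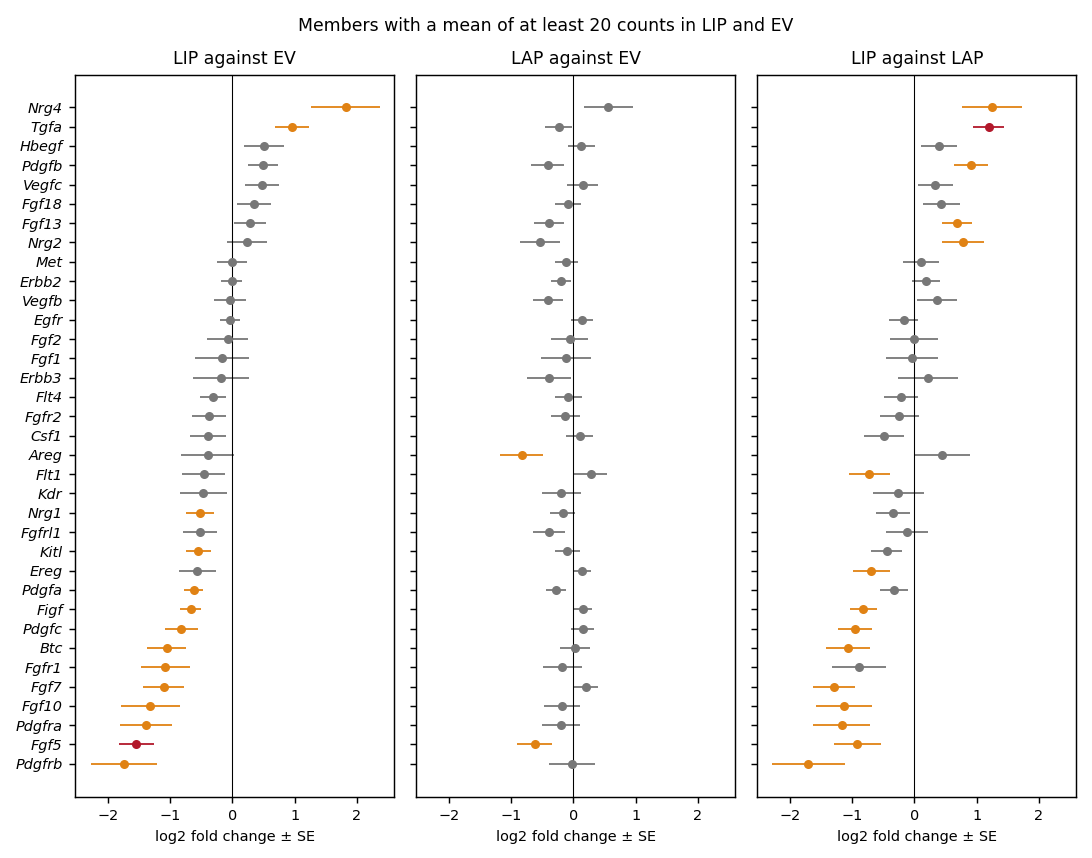
Log2 fold change with its SE for the 35 members with a mean of at least 20 counts in LIP and EV, in the order of LIP against EV. Red marks an adjusted p under 0.05 (Fgf5 in LIP against EV, Tgfa in LIP against LAP) and orange an unadjusted p under 0.05. In LIP against EV 27 of the 35 lie below 0.

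Among the 15 members with an unadjusted p under 0.05 and lower in LIP, LIP library 1 was the highest of the LIP libraries for 8 and library 3 was the lowest for 8. With library 1, 2 or 3 of LIP left out, 17, 15 and 15 members met this criterion, beside 8.57%, 5.70% and 8.15% of all genes. The summed level of the 11 fibroblast markers was 35323 to 39800 CPM in EV, 29510 to 43246 CPM in LAP and 17054 to 30313 CPM in LIP, and 6 of the 11 were lower in LIP than in EV at an unadjusted p under 0.05 (6.75% of all genes), with 0 past the adjusted threshold by edgeR. The summed level of the 6 epithelial markers was 933 to 1123 CPM in EV and 995 to 1899 CPM in LIP, that of the 6 endothelial markers 0.529 to 0.886 and 0.367 to 0.885 CPM, and that of the 6 macrophage markers 3.43 to 5.59 and 4.72 to 8.88 CPM. The part of these differences in the values of the growth factor genes was not tested.

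LAP was next compared with EV. No member passed the adjusted threshold in either direction. Of the 51 tested, 0 were lower (0.0330% of all 18156 genes) and 0 higher (0.0275%) by edgeR's adjusted test. At an unadjusted p under 0.05, 3 were lower (5.88%, against 1.34%), namely Areg, Fgf5 and the barely detected Fgf11, and 0 were higher (1.93%). Replicate number was also used as a block, because libraries of the same number deviated together in these counts. With it, 0 were lower and 0 higher as well (0.165% and 0.132% of all genes). DESeq2 and edgeR's exact test also called 0. Of the 36 members with a mean of at least 20 counts, 25 lay below 0, with a median log2 fold change of -0.12, beside 0.00 and 49.6% over all genes at that level. The median ran from -0.28 without LAP library 1 to -0.05 without LAP library 2, LAP library 3 or EV library 1. The log2 fold changes of LAP against EV were -0.62 ± 0.28 for Fgf5 and -0.83 ± 0.34 for Areg (SE, n = 3 each, adjusted p = 0.918 for both by edgeR), and they were 0.20 ± 0.19 for Fgf7, -0.28 ± 0.16 for Pdgfa, 0.15 ± 0.15 for Figf and -0.20 ± 0.31 for Pdgfra. Groups did not overlap, with LAP lower, for 2 members (3.92%, against 3.76% of all genes) and, with LAP higher, for 2 (3.92%, against 3.81%), Ereg and the barely detected Pdgfd. Areg did not overlap, as EV ran from 0.809 to 1.51 CPM and LAP from 0.555 to 0.683 CPM, and neither did Pdgfa, whose lowest EV library had 37.1 CPM and highest LAP library 35.8 CPM. For Fgf5, 1 LAP library lay within the range of EV, and the log2 fold change was -0.38 without LAP library 1, while that of Areg was -0.54 without EV library 2.

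LIP and LAP were then compared directly, which tests the difference between the cells transfected with either isoform and does not use EV. By edgeR's adjusted test without a block only Tgfa passed, higher in LIP. With replicate number as a block, Fgf13, Nrg2 and Pdgfb were also higher. Lower with the block were Fgf7, Fgf10, Pdgfc, Pdgfra, Pdgfrb, Figf, Flt1, Btc and Ereg. The block was used because same-numbered libraries deviated together in these same counts, and the labels name no shared culture or batch. Calls that need it depend on that pairing. Without the block, 0 of the 51 members tested were lower by edgeR's adjusted test, where 0.837% of all 18166 genes were (0 also by DESeq2 and the exact test), and 1 was higher, where 0.209% were. At an unadjusted p under 0.05, 14 were lower (27.5%, against 5.98%) and 6 higher (11.8%, against 3.30%). Groups did not overlap, with LIP lower, for 9 (17.6%, against 6.58%), and with LIP higher for 3 (5.88%, against 6.23%). With the block, 9 were lower (17.6%, against 4.79%) and 4 higher (7.84%, against 1.72%). Of the 35 members with a mean of at least 20 counts, 22 lay below 0, with a median of -0.22, beside 0.01 and 49.0% over all genes at that level. The median ran from -0.34 to -0.04 with a library left out, and it was -0.04 without LAP library 1 and -0.06 without LIP library 2.

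Tgfa had a log2 fold change of 1.19 ± 0.25 in LIP against LAP (SE, n = 3 each, adjusted p = 0.0284 by edgeR), 2.28-fold higher, and of 1.14 ± 0.19 with the block (adjusted p = 1.66e-06 by edgeR). The lowest LIP library had 34.3 CPM and the highest LAP library 22.4 CPM. The call without the block was lost without LIP library 1 (adjusted p = 0.0586), without LAP library 2 (0.181), with filterByExpr (0.175) and with the current quasi-likelihood form (0.125).

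Pdgfb, chosen here after its values were seen, was at 31.7, 28.1 and 17.2 CPM in EV, 27.1, 17.8 and 13.2 CPM in LAP and 42.9, 38.9 and 26.4 CPM in LIP. In each group library 1 was highest and library 3 lowest, so that the groups overlapped although LIP exceeded LAP at every number. Its log2 fold change in LIP against LAP was 0.91 ± 0.27 without the block (SE, adjusted p = 0.150 by edgeR) and 0.94 ± 0.19 with it (adjusted p = 0.000101 by edgeR). Fgf13, an intracellular member of the FGF family that binds sodium channels, was at 13.6, 19.0 and 8.93 CPM in EV, 9.59, 11.9 and 10.3 CPM in LAP and 15.7, 19.1 and 15.7 CPM in LIP. LIP did not overlap with LAP, and the adjusted p was 0.286 without the block and 0.0206 with it by edgeR. Nrg2, a ligand of ERBB3 and ERBB4, was at 6.13, 4.58 and 2.67 CPM in EV, 4.29, 2.16 and 2.77 CPM in LAP and 4.33, 4.59 and 6.75 CPM in LIP, where the lowest LIP library barely exceeded the highest of LAP. Its adjusted p was 0.463 without the block and 0.0432 with it by edgeR.

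**Figure D4:**
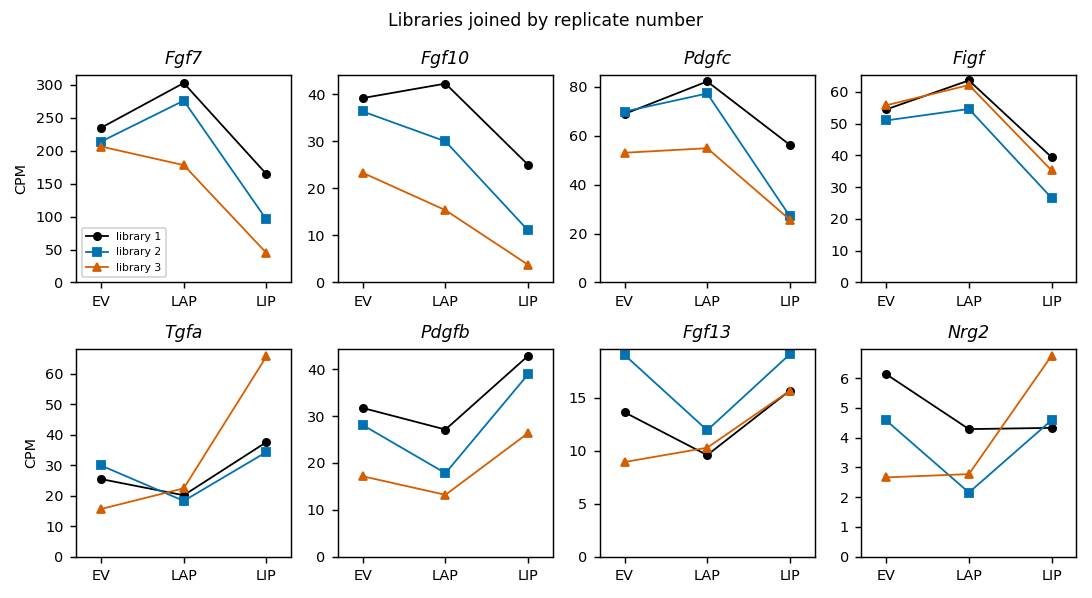
CPM of 8 members in EV, LAP and LIP, with the libraries of the same replicate number joined by a line. For Fgf7, Fgf10, Pdgfc and Figf each line falls from LAP to LIP, and for Tgfa, Pdgfb, Fgf13 and Nrg2 each rises.

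On the lower side, the log2 fold change of Fgf7 in LIP against LAP was -1.29 ± 0.34 (SE, adjusted p = 0.0819 by edgeR) and with the block -1.45 ± 0.19 (adjusted p = 1.20e-09 by edgeR). That of Fgf10, which ran in parallel at 42.2, 29.97 and 15.4 CPM in LAP and 24.98, 11.0 and 3.75 CPM in LIP, was -1.12 ± 0.45 (adjusted p = 0.389) and with the block -1.37 ± 0.20 (adjusted p = 1.71e-07 by edgeR). For Pdgfc it was -0.96 ± 0.28 (adjusted p = 0.127) and with the block -1.03 ± 0.18 (adjusted p = 9.79e-06 by edgeR). In all 3 genes, libraries numbered 3 were the lowest of their group. Figf, with -0.82 ± 0.22 (adjusted p = 0.0921), had an adjusted p of 0.000414 with the block by edgeR. The adjusted p with the block was 0.00186 for Ereg, 0.00492 for Pdgfrb, 0.00610 for Flt1, 0.00876 for Pdgfra and 0.00958 for Btc, and it was 0.445, 0.261, 0.493, 0.370 and 0.224 without it by edgeR. The log2 fold change of Pdgfrb, -1.70 ± 0.58 (SE), was -1.09 without LAP library 1. Fgf5 lay at -0.91 ± 0.37 (SE, adjusted p = 0.401 by edgeR, and 0.0582 with the block), past the threshold in neither fit, and at -0.47 without LAP library 3. The difference of Pdgfa between LIP and LAP was -0.33 ± 0.22, and that of Fgfr1 was -0.89 ± 0.44 (SE).

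The other genes of these pathways were grouped by their place in the signal. Of 24 ligands and receptors of other receptor tyrosine kinases, 2 fell in LIP against EV (0.330% of all genes), the angiopoietin gene Angpt1 and Gas6, the ligand of the AXL, MERTK and TYRO3 receptors. Gas6 had 59.5 ± 14.9 CPM (SD, n = 3) in EV against 13.7 ± 7.58 CPM in LIP, a log2 fold change of -2.13 ± 0.32 (SE, adjusted p = 0.0152 by edgeR). Angpt1 had 3.96 ± 1.47 and 0.525 ± 0.374 CPM (SD), with -2.94 ± 0.48 (SE, adjusted p = 0.0245 by edgeR). Both were also lower in LIP than in LAP, by -1.50 ± 0.35 and -3.08 ± 0.50 (SE, adjusted p = 0.0452 and 0.00558 by edgeR), and 0 of the list passed in LAP against EV. With the block, 5 of the list were lower in LIP than in LAP (4.79% of all genes).

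Of 19 co-receptors and ligand binders, such as the syndecans, glypicans and neuropilins that hold growth factors at the cell surface, 0 passed in LIP against EV and 8 had an unadjusted p under 0.05, lower in LIP (6.75% of all genes). The median log2 fold change of the 14 with a mean of at least 20 counts was -0.66, the lowest of the 6 lists. Gpc1, a glypican, passed in LIP against LAP (-1.35 ± 0.32, SE, adjusted p = 0.0488 by edgeR), as 1 of the list lower without the block (0.837% of all genes). With the block 7 of the list passed, all lower (4.79% of all genes). Of 11 genes of ligand release and activation, 0 passed in any comparison without the block. With it, 1 was lower in LIP than in LAP (4.79% of all genes). The median in LIP against EV was -0.32. Plat, the tissue plasminogen activator, had the smallest p, with -0.94 ± 0.26 (SE, adjusted p = 0.156 by edgeR).

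Of 33 adaptors, Ras, MAP kinase and PI3 kinase genes tested, 0 passed without the block. With it, 1 was lower in LIP than in LAP (4.79% of all genes). The median was -0.01 in LIP against EV and 0.10 in LIP against LAP, with the adaptor Grb14 lowest in p (-0.96 ± 0.29, SE, adjusted p = 0.206 by edgeR). Among 18 tested feedback inhibitors the median was 0.10 in LIP against EV, where 5 lay below 0, and the unadjusted p was under 0.05 for 1 on the lower and 3 on the higher side (6.75% and 4.23% of all genes). In LIP against LAP the median was 0.20. There 1, the MAP kinase phosphatase gene Dusp4, was higher in LIP than in LAP (0.99 ± 0.23, SE, adjusted p = 0.0453 by edgeR), where 0.209% of all genes were. With the block 2 were lower and 3 higher (4.79% and 1.72% of all genes). Of 12 transcripts tested that are known to follow MAP kinase activity, 0 passed in LIP against EV or LAP without the block. With it, 2 were higher in LIP than in LAP (1.72% of all genes). The median was 0.08 against EV and 0.18 against LAP. Dusp6, Spry2 and Spry4 were on both of the last lists, which are therefore not separate observations. Dusp6 had 127 ± 22.6 CPM (SD, n = 3) in EV against 202 ± 28.6 CPM in LIP, without overlap and with an adjusted p of 0.148 by edgeR. Myc, on the list of transcripts known to follow MAP kinase activity, was listed at 0 in all 9 libraries. Whether the counting lost its reads was not tested.

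**Figure D5:**
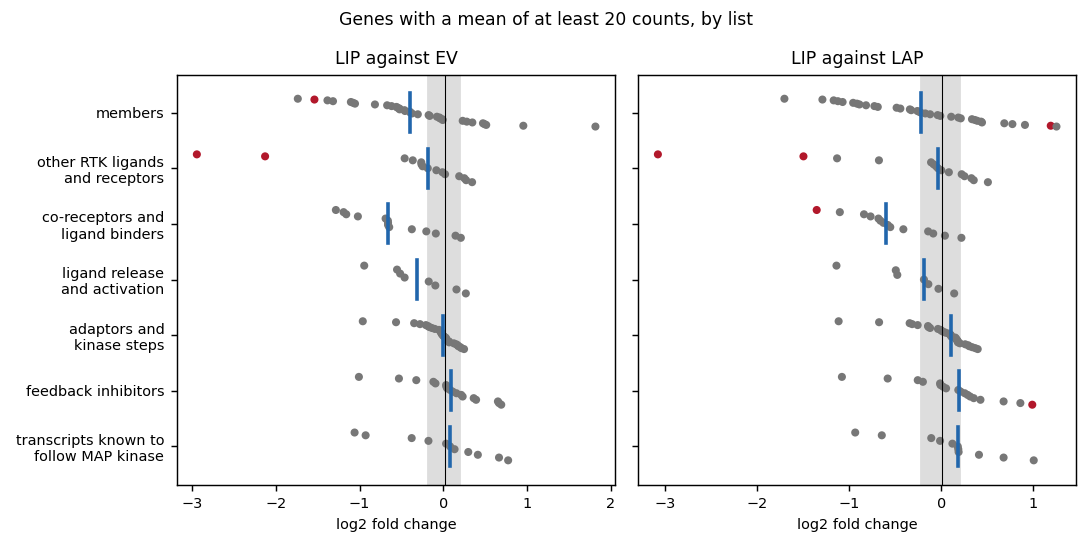
Log2 fold change in LIP against EV and in LIP against LAP of the members and of 6 lists of other pathway genes, 1 point per gene with a mean of at least 20 counts. Red marks an adjusted p under 0.05, blue bars the medians, and the grey band the middle 50% of all genes. In LIP against EV the medians are -0.39 for the members, -0.66 for co-receptors and -0.01 for adaptors and kinase steps.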

How the data were processed

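Total RNA of Cebpb-ko MEFs (3 libraries each of EV, LAP and LIP, grouped by the labels) was sequenced by the authors (TruSeq RNA v2). Per the labels' processing notes, reads were handled with bcl2fastq 1.8.3, TopHat 1.4.1 and HTSeq 0.5.4, and the authors deposited raw counts per gene symbol, without normalization. The builds named there are GRCh38 and mm10. The strand setting and the treatment of reads shared by transcripts are not given in the sources used here, so antisense or overlapping genes cannot be told apart.

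Each comparison used its 6 libraries and all genes with at least 1 count in them. TMM-scaled counts were tested with edgeR 4.0.16 (R 4.3.3, quasi-likelihood, legacy form) without covariates, with Benjamini-Hochberg adjustment over all genes tested and a threshold of 0.05. The SE was taken as the absolute log2 fold change over the root of the F value. The test was run on simulated counts of a preset spread without a library set apart. That run does not check it for these data. Alternatives were DESeq2 1.42.0 and its size factors, the exact test, the current quasi-likelihood form, total counts, filterByExpr, all 9 libraries, a replicate block and leaving out each library. The joint call of DESeq2 and the exact test was added after seeing the data. It resembles the authors' own criterion, an adjusted p under 0.05 by both edgeR and DESeq. Numbers 1 to 3 come from the labels, which do not say whether libraries of equal number share a culture or batch. Over genes averaging 20 counts or more, deviations from group means correlated between same-numbered libraries at 0.532, 0.210 and 0.512 in LAP and EV and at 0.563, 0.418 and 0.468 in LIP and LAP, which were therefore treated as paired.

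The members and lists were chosen with earlier results of these data known. Named are members with an adjusted p under 0.05, members with a mean of at least 20 counts, an unadjusted p under 0.05 and no overlap, the highest member per role, and in each list the genes past the threshold or else that with the smallest p. Positions and promoters are from RefSeq GRCm38.p6, exon lengths and transcripts from the RefSeq-matched transcripts of GENCODE M21. All 58 members were matched. Figures were drawn with matplotlib 3.10.9.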

Additional observations from a re-analysis of the deposited data

Results flagged for a closer look

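The LIP and LAP libraries differed for Tgfa, the gene of an EGFR ligand. In the direct test of LIP against LAP by edgeR its log2 fold change was 1.19 (adjusted p = 0.0284), with the LIP libraries at 37.6, 34.3 and 65.6 CPM and the LAP libraries at 20.1, 18.3 and 22.4 CPM. All 3 LIP libraries lay above all 3 LAP libraries. LIP library 3, which lay farthest from the other groups on the leading component, was the highest of them, and without it the log2 fold change was 0.84 (adjusted p = 0.0488 by edgeR). The call was lost without LIP library 1 (adjusted p = 0.0586) and without LAP library 2 (0.181), with filterByExpr (0.175) and with the current quasi-likelihood form (0.125), by edgeR.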

How the results depend on the processing

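The share of all genes past the adjusted threshold is given above only for the main fits and for the blocks with LAP. The other counts here, the block of LIP against EV included, stand without that share. In LIP against EV, where 1 member was lower, DESeq2 gave 3, the exact test 4, both together 2 (Fgf5 and Pdgfa), all 9 libraries 1, and the current quasi-likelihood form, total counts only and filterByExpr 0. At an unadjusted p under 0.05 by edgeR, the block of LIP against EV gave 16 lower members, beside 7.81% of all genes. With a library left out it was 0 to 5, with 5 without LIP library 1, 3 without LIP library 3 and 0 without any of the EV libraries. The count of higher members was 0 to 1, the 1 being Nrg4 without LIP library 3. A replicate block gave 6 lower (Fgf5, Fgf7, Fgf10, Figf, Pdgfc and Pdgfra) and 0 higher, but same-numbered LIP and EV libraries correlated at 0.290, -0.131 and 0.225, so not every pair was over 0.1 as it was in the other comparisons, the pairing of LIP with EV is not settled, and LIP library 2 did not correlate best with its own number. In LIP against LAP, the lower members were 0 without and 9 with the replicate block, 1 (Figf) with all 9 libraries and 0 to 3 with a library left out, 2 without LIP library 1 and 3 without LAP library 3. The higher members were 1 without and 4 with the block, 0 with the current quasi-likelihood form and filterByExpr, and 0 to 3 with a library left out, 0 without LIP library 1 or LAP library 2, 2 without LAP library 1 and 3 without LIP library 3. In LAP against EV the count was 0 in both directions throughout, the block included, which changed no call there. The 26 differences of named members with an unadjusted p under 0.05, chosen for their change, gave 364 values under these alternatives, of which 326 kept their direction and side of the threshold, 27 gained and 11 lost the call, and 0 turned. Only Fgf5 in LIP against EV and Tgfa in LIP against LAP were called in the main fit and could lose a call. All 11 losses were theirs, and most of the 326 values belong to differences that were not called and stayed so. Among all members with a mean of at least 20 counts, 9 of 35 turned direction with some library left out in LIP against EV (Met and Erbb2 among them), 16 of 36 in LAP against EV and 7 of 35 in LIP against LAP. The share of member promoters with the C/EBP motif was 10.9% for TTGCNNAA and 0% for TTGCGCAA. Members under about 20 counts are limited by depth. The causes of these shifts were not tested.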
